A study of Mus musculus with 9 samples.

Results

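Hypoxia targets and the enzymes of glycolysis were followed across 9 mouse bladder arrays as a list of 33 gene symbols. The list was given by name, and each gene was read by its brightest probe set, by mean level over the 9 arrays. Of the 33 genes, 29 had a probe set of their own on the array, and all 29 passed the filter on low values, as did 11969 of the 17097 genes measured. Gpi1, Eno1 and P4ha1 had no probe set naming them alone. Pgam1 was read by a probe set shared with a pseudogene, and was left out. The 29 genes comprised 11 enzymes and transporters of glycolysis, 3 regulatory kinases and 15 other hypoxia targets.

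Glycolysis breaks glucose down to pyruvate in the cytosol, and lactate dehydrogenase turns pyruvate to lactate when it is not passed to the mitochondria. Hypoxia-inducible factors (HIF) are transcription factors whose alpha subunits are hydroxylated and degraded when oxygen is present, and accumulate when it is scarce. They bind a short DNA element whose core is ACGTG or GCGTG, and are known to raise glucose uptake, glycolytic enzymes, lactate export, pH control and blood vessel growth. Many tumours also run glycolysis at a high rate when oxygen is available.

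All mice were female C57BL/6J, and their age was not given. Tumours were made by preconditioning the bladder with poly-L-lysine and instilling MB49 cells, a mouse bladder carcinoma line, on day 0. Alpha1-oleate, in which a peptide is bound to the fatty acid oleate, was instilled into tumour-bearing bladders 5 times from day 3 to day 11 at 1.7, 8.5 or 17 mM. Sham-treated tumour mice received PBS, and tumour bladders were taken on day 12. Mice without tumours received PBS, or 17 mM alpha1-oleate with sampling after 24 h or 7 d. Experiment 1 held 5 arrays, namely tumour-free PBS, sham-treated tumour and the 3 doses. Experiment 2 held 4 arrays, namely tumour-free PBS, sham-treated tumour, and the tumour-free bladders labelled 24 h and 7 d after 17 mM. Thus tumour-free PBS and sham-treated tumour had 2 arrays each and every other group had 1. The labels do not say whether arrays came from separate animals or pools, so p-values measure the spread between these arrays, which may be technical. The number of arrays limits the precision.

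Values are log2 intensities, read from whole bladders. In such RNA, fewer cells of a type and less RNA per cell cannot be told apart. The 2 experiments had been normalized apart, so levels were compared within an experiment, and differences were fitted with the experiment as a block. The tissue label was checked against 8 urothelial genes, whose summed level was 14.15 and 13.72 in the tumour-free PBS bladders and 10.67 and 9.98 in the sham-treated tumours. On the array labelled healthy, 17 mM, 24 h, some genes went against its label. Mki67, a proliferation gene, read 6.83 there, against 3.41 in tumour-free PBS and 4.19 at 7 d in the same experiment. S100a8, a neutrophil gene, read 7.07 there against 2.97 and 3.00, and the liver gene Alb read 8.80 against 3.85 and 3.52. On the 17 mM tumour array these genes read 8.05, 8.01 and 10.15. Other genes of the same cell types did not differ so. On the labelled array Cxcr2, a neutrophil gene, read 4.59 against 4.42 and 4.63. Ttr, a liver gene, read 8.29 against 8.78 and 8.35. Summed urothelial genes read 13.12 on it, against 13.72 in tumour-free PBS, 13.95 at 7 d and 13.41 on the 17 mM tumour array. The labelled array enters no comparison below except its own, and is called by its label throughout.

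The promoters of the genes were examined for the HIF core on either strand, as ACGTG or GCGTG, in windows from 250 bases before to 50 after each start in RefSeq's mouse promoter table (GRCm38.p6). A palindromic CACGTG holds a match on both strands, and the matches overlap. Of the 29 genes, 26 matched the table, with 37 windows. A match lay in 29 of the 37 windows (78.4%), against 43.8% of all 32851 windows and 59.8% of the 12299 windows of genes that passed the filter. With ACGTG alone the shares were 59.5%, 19.6% and 24.6%. Tpi1 was the 1 matched gene of the 26 with no match in any window. Below are the 160 bases before the start for genes that carry the results that follow, 5′ to 3′ on the gene's strand, with core matches in capitals. Car9, Hk2, Adm, Bnip3, Pgk1 and Ldha are shown because they rose in tumours and fell at 17 mM. P4ha2 is shown because it went the opposite way.
Car9, chr4:43506866-43507025, plus strand: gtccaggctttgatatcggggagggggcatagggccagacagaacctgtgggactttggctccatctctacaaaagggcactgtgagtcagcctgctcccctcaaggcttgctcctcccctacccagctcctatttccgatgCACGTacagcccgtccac
Hk2, chr6:82774455-82774614, minus strand: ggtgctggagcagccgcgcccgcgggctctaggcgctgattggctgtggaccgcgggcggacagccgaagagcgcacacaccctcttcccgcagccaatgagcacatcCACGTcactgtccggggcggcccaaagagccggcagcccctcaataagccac
Pgk1, chrX:106186940-106187099, plus strand: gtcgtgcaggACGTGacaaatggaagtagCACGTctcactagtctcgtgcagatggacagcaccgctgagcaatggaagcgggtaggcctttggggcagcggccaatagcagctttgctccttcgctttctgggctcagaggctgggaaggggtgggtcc
Ldha, chr7:46845644-46845803, plus strand: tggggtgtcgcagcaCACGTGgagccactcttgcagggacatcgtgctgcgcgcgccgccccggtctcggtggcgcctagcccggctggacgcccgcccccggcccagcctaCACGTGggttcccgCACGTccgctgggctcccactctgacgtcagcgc
Bnip3, chr7:138909507-138909666, minus strand: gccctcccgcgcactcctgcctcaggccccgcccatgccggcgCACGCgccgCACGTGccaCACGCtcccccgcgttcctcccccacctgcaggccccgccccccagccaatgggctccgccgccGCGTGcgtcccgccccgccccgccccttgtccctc
Adm, chr7:110627497-110627656, plus strand: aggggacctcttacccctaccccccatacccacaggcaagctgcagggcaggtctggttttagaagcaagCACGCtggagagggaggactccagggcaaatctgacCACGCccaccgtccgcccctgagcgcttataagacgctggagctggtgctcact
P4ha2, chr11:54100764-54100923, plus strand: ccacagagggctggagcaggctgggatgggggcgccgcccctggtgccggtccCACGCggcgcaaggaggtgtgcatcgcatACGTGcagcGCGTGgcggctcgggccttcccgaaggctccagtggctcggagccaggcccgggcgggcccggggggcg
Ldha has another start in the promoter table, and the 160 bases before it hold 1 match and are not shown. The shown stretches of Car9 and Hk2 hold 1 match each, those of Pgk1 and Adm 2, and that of P4ha2 3. Those of Ldha and Bnip3 hold 5, counting both strands. The gene that moved the opposite way in the arrays thus held the core as well. A match in these letters is a description and not a measured binding site.

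Tumour-bearing bladders carried more transcript of all 11 listed enzymes and transporters of glycolysis that were measured. Against tumour-free PBS, the sham-treated tumours had 23 of the 29 genes higher and 1 lower at an adjusted p under 0.05, by limma with Benjamini-Hochberg adjustment over the 11969 genes. Over all genes 28.6% were called higher and 28.6% lower. The 29 genes had a median difference of 1.14 log2, and all genes one of -0.005. All 11 enzymes and transporters rose, 1 of the 3 kinases rose, and 11 of the 15 other targets rose while 1 fell. Within each experiment, 26 of the 29 read higher in the tumour, as did 43.6% of all genes in both. The fit without the experiment block called 15 of the 29 genes, all higher. In that fit, leaving out the tumour-free PBS array of experiment 2 left 7 called and leaving out the sham-treated tumour of experiment 1 left 8.

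**Figure D1:**
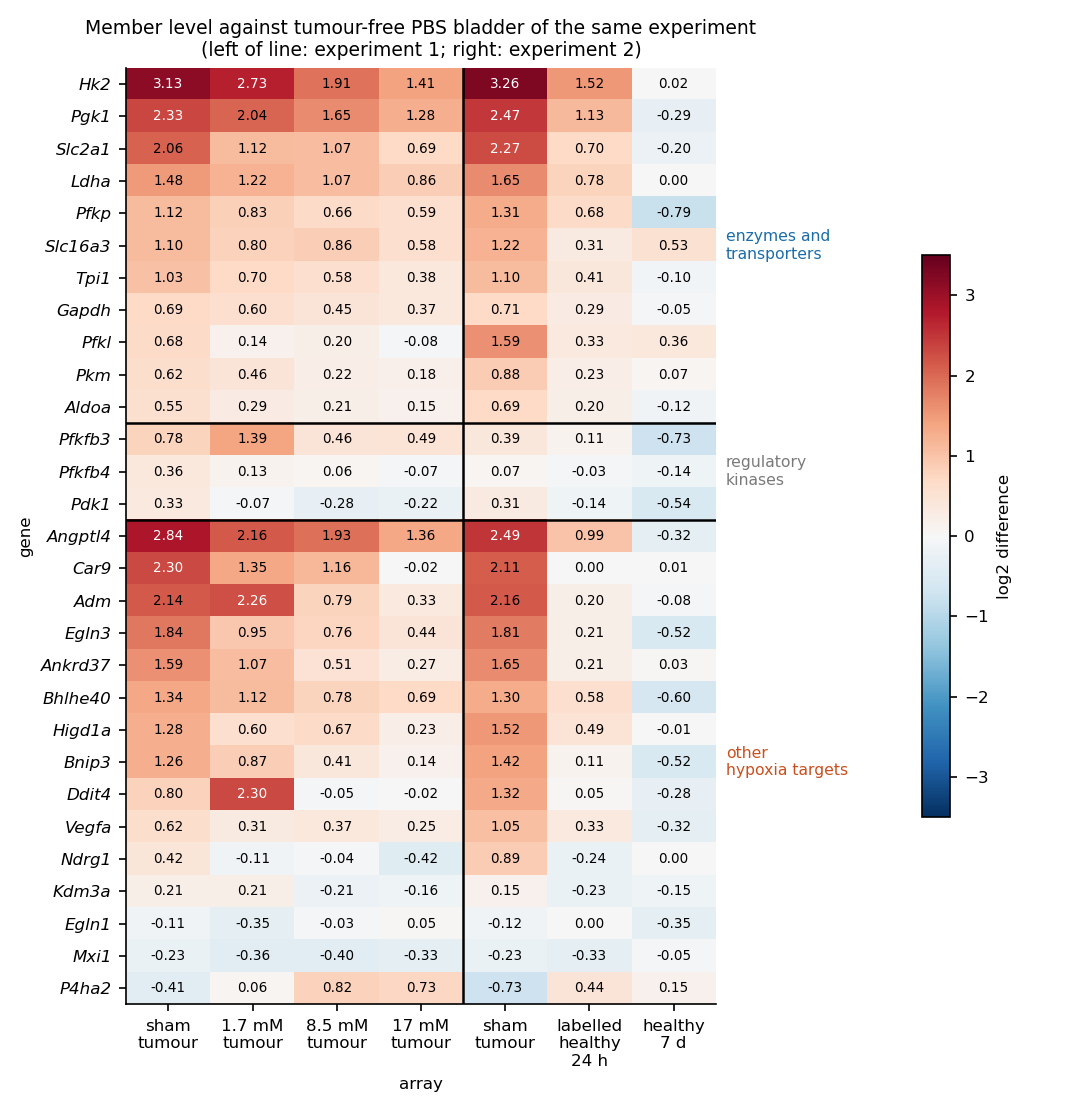
Log2 level of the 29 genes on each array minus that of the tumour-free PBS bladder of the same experiment, 1 array per column, genes ordered within their group by the sham-treated tumour of experiment 1. Hk2 was 3.13 and 3.26 higher in the sham-treated tumours of the 2 experiments, 1.41 higher at 17 mM, and 0.02 higher at 7 d in the tumour-free bladder.

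Genes of glucose entry were among those with the largest rises. Hk2, the hexokinase that phosphorylates glucose on entry, read 6.61 and 6.23 in the tumour-free PBS bladders of experiments 1 and 2, and 9.74 and 9.49 in the sham-treated tumours. It read 9.34, 8.52 and 8.02 at 1.7, 8.5 and 17 mM. Thus the tumour lay above the tumour-free bladder in each experiment, and each higher dose lay lower. Its fitted rise in tumours was 9.16-fold (3.20 log2, SE 0.09, adjusted p = 0.0024 by limma). Slc2a1, the glucose transporter GLUT1, read 8.50 and 7.65 in tumour-free PBS, 10.56 and 9.92 in the sham-treated tumours, and 9.62, 9.57 and 9.19 at the 3 doses. The tumour again lay above the tumour-free bladder in each experiment, by 4.49-fold in the fit (2.17 log2, SE 0.11, adjusted p = 0.00262 by limma).

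The phosphofructokinases set the committed step of glycolysis. Pfkp, the platelet form, read 8.78 and 8.21 in tumour-free PBS and 9.90 and 9.52 in the sham-treated tumours. Pfkl, the liver form, read 8.40 and 7.60 against 9.08 and 9.19. Both rose, Pfkp by 1.22 log2 (SE 0.10) and Pfkl by 1.14 (SE 0.27), but the rise of Pfkl was 0.68 in experiment 1 and 1.59 in experiment 2. The other 2 probe sets of Pfkl differed by 0.81 and 1.32, and by 0.30 and 0.38.

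In the later steps, the size of the rise differed widely between genes. Pgk1, phosphoglycerate kinase, which makes ATP, read 9.50 and 9.00 in tumour-free PBS and 11.83 and 11.47 in the sham-treated tumours. It stood at 11.54, 11.15 and 10.78 at the 3 doses, so the tumour was higher in each experiment and the doses were ordered. Its rise in tumours was 5.28-fold (2.40 log2, SE 0.10, adjusted p = 0.0024 by limma). By contrast Aldoa (aldolase), Gapdh (glyceraldehyde-3-phosphate dehydrogenase) and Pkm (pyruvate kinase) rose by 0.62, 0.70 and 0.75, and Tpi1 (triosephosphate isomerase) by 1.07. Aldoa, Tpi1 and Gapdh were read by probe sets whose names mark possible cross-hybridization (x_at or s_at). So were Angptl4 and Ndrg1 among the other hypoxia targets. All 4 probe sets of Aldoa read higher in the tumour of both experiments, by 0.49 to 0.99, as did both of Tpi1.

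Genes of lactate production and export rose too. Ldha, the lactate dehydrogenase subunit that favours lactate, read 10.52 and 9.76 in tumour-free PBS, 12.00 and 11.41 in the sham-treated tumours, and 11.74, 11.59 and 11.38 at 1.7, 8.5 and 17 mM. Slc16a3, the lactate exporter MCT4, read 4.08 and 4.14 in tumour-free PBS and 5.18 and 5.36 in the sham-treated tumours. Its tumour-free readings lay under 4.16, the mean level that the filter on low values required, so the size of its rise is uncertain. The rises were 2.96-fold for Ldha (adjusted p = 0.00335 by limma) and 2.24-fold for Slc16a3 (adjusted p = 0.00447).

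The regulatory kinases had smaller differences. Pfkfb3 makes the activator of phosphofructokinase. It read 5.65 and 5.03 in tumour-free PBS and 6.43 and 5.42 in the sham-treated tumours, higher in the tumour by 0.78 and 0.39 within the experiments. Its second probe set had a mean of 3.69, under the filter. Its fitted rise of 0.59 (SE 0.14) passed at an adjusted p of 0.0393 by limma. Pdk1, which inhibits pyruvate dehydrogenase, differed by 0.32 (adjusted p = 0.0534) and Pfkfb4, a relative of Pfkfb3, by 0.22 (adjusted p = 0.211). Another probe set of Pdk1 went the opposite way, by -0.58 and -0.64, and was called lower when every probe set was fitted on its own (adjusted p = 0.0175 over 20234 probe sets).

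Among the other hypoxia targets, Angptl4, Car9 and Adm had the largest differences. Angptl4, a secreted inhibitor of lipoprotein lipase, read 6.85 and 6.55 in tumour-free PBS, 9.69 and 9.04 in the sham-treated tumours, and 9.01, 8.78 and 8.21 at the 3 doses. The probe set used for Angptl4 was an s_at set, so cross-hybridization is possible. Its second probe set had a mean of 2.63, under the filter, and gives no second reading of the gene. Car9, a membrane carbonic anhydrase of hypoxic tumour cells, read 4.94 and 4.30 in tumour-free PBS, 7.24 and 6.41 in the sham-treated tumours, and 6.29, 6.10 and 4.92 at the 3 doses. At 17 mM it stood at its tumour-free level of the same experiment. Adm, the vessel-dilating peptide adrenomedullin, read 6.51 and 6.02 in tumour-free PBS, 8.65 and 8.18 in the sham-treated tumours, and 8.77, 7.30 and 6.84 at the 3 doses. The rises in tumours were 6.34-fold for Angptl4, 4.61-fold for Car9 and 4.44-fold for Adm.

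Egln3, a prolyl hydroxylase that marks HIF for degradation and is itself a HIF target, rose by 1.83 in tumours, and both its probe sets read higher in the tumour of both experiments. Ankrd37, an ankyrin repeat protein, rose by 1.62, and Bnip3, a receptor for the removal of mitochondria, by 1.34. Ankrd37 read 3.88 in the tumour-free PBS bladder of experiment 2, under the filter level of 4.16, so the size of its rise is uncertain. Bnip3 read 9.28 and 8.97 in tumour-free PBS, 10.54 and 10.39 in the sham-treated tumours, and 10.15, 9.69 and 9.42 at the 3 doses. Bhlhe40, a transcriptional repressor, rose by 1.32. Ddit4, an inhibitor of mTOR signalling, rose by 1.06, Vegfa, the vascular growth factor, by 0.84, and Ndrg1, a stress-response gene, by 0.66.

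Higd1a, a protein of the inner mitochondrial membrane, rose by 1.40 on the probe set used. A second probe set differed by -0.07 and -0.33 in experiments 1 and 2, and the last one had a mean of 3.73, under the filter. Egln1, the main HIF prolyl hydroxylase, differed by -0.12 (adjusted p = 0.331) on the probe set used, while its second probe set was higher by 1.39 and 1.61 in the 2 experiments (1.5 log2, adjusted p = 0.00482 over 20234 probe sets). For these genes the direction depends on the probe set. Kdm3a, a histone demethylase, and Mxi1, a MYC antagonist, differed by 0.18 (adjusted p = 0.175) and -0.23 (adjusted p = 0.107).

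P4ha2, a subunit of the collagen prolyl hydroxylase, was the 1 gene of the 29 called lower in tumours. It read 5.69 and 5.36 in tumour-free PBS and 5.28 and 4.63 in the sham-treated tumours. It then read 5.75, 6.51 and 6.42 at 1.7, 8.5 and 17 mM, above the tumour-free bladder of its experiment. The fall in tumours was 1.49-fold (adjusted p = 0.0325 by limma), and the rise at 17 mM against sham 2.33-fold (adjusted p = 0.0276). Fibroblast genes, which include the collagens, had summed levels of 13.23 and 12.77 in tumour-free PBS, 12.70 and 12.10 in the sham-treated tumours, and 13.46, 14.24 and 14.25 at the 3 doses. All 7 listed fibroblast genes were measured. Of the 6 above the filter, 3 were called lower in tumours, where 28.6% of all genes were, and 3 had fitted differences above 0. The collagens did not follow the summed fall in tumours. Col1a1 differed by 0.06 and 1.02 within experiments 1 and 2, Col3a1 by 0.19 and 0.12, and Col1a2, under the filter, by -0.06 and -0.01. The part of the fibroblast genes in the result for P4ha2 was not tested.

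At 17 mM the tumour had lower levels of 13 of these genes than sham. Against sham-treated tumour, 13 of the 29 genes were called lower and 1, P4ha2, higher, where 10.6% of all genes were called lower and 15.7% higher. That is 1272 lower and 1875 higher genes, and joint quantile normalization of all arrays gave 2246 and 2151. The median difference was -0.66 log2, and that of all genes -0.045. The genes called lower were 5 of the 11 enzymes and transporters and 8 of the 15 other targets, with none of the 3 kinases. The fit without the experiment block called 3 of the 29, all lower. In that fit, 1 gene was called without either tumour-free PBS array. Without the sham-treated tumour of experiment 1 it also called 1, and that one was higher. Without the sham-treated tumour of experiment 2 it called 2.

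**Figure D2:**
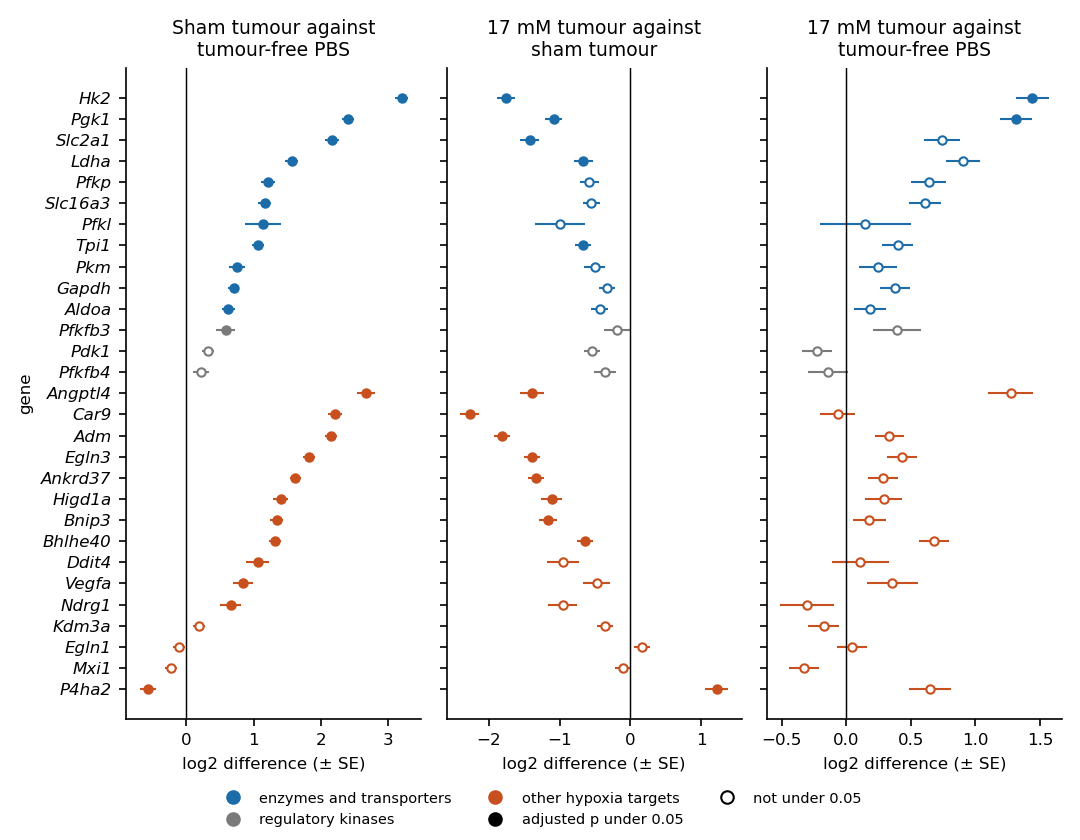
Fitted log2 differences of the 29 genes with standard errors (bars), for sham-treated tumour against tumour-free PBS, 17 mM tumour against sham, and 17 mM tumour against tumour-free PBS, each panel with its own axis. Filled points passed an adjusted p of 0.05 by limma. In the middle panel Car9 fell by 2.27 log2 and P4ha2 rose by 1.22.

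Car9 and Adm fell furthest, to near their tumour-free levels, while Hk2, Pgk1 and Angptl4 kept a larger difference. Car9 was 4.83-fold lower at 17 mM than in sham (SE 0.14 log2, adjusted p = 0.0159 by limma), Adm 3.52-fold and Hk2 3.37-fold. Slc2a1 was 2.68-fold lower, Angptl4 and Egln3 2.63-fold each, Ankrd37 2.52-fold and Bnip3 2.24-fold. Higd1a and Pgk1 fell by 1.11 and 1.09 log2. Tpi1, Ldha and Bhlhe40 fell by 0.67, 0.66 and 0.64, with adjusted p between 0.041 and 0.0489. Without the block these 3 differences were -0.32, -0.33 and -0.37, none of them called. Leaving out the sham-treated tumour of experiment 1 as well gave 0.01, -0.03 and -0.08. That sets the 17 mM array against the sham-treated tumour of experiment 2 alone, across experiments normalized apart. It therefore does not measure the effect of 17 mM within an experiment. Within experiment 1 the differences from sham were -0.65, -0.62 and -0.65. Higd1a, averaged over all its probe sets, stood at -0.20 (adjusted p = 0.264 by limma). Angptl4, averaged over both of its sets including the one under the filter, stood at -0.65 (adjusted p = 0.07). The other enzymes were lower without passing, namely Pfkl (-0.99), Pfkp (-0.58), Slc16a3 (-0.55), Pkm (-0.51), Aldoa (-0.44) and Gapdh (-0.33). Ddit4, Ndrg1, Pdk1, Vegfa and Kdm3a stood at -0.95, -0.96, -0.55, -0.48 and -0.36, with adjusted p from 0.0547 to 0.168.

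Fewer genes were called at 8.5 mM. There 7 of the 29 genes were called lower and P4ha2 higher, where 4.65% of all genes were called lower and 11% higher. The 7 were Adm (-1.36), Hk2 (-1.25), Ankrd37 (-1.10), Car9 (-1.09), Egln3 (-1.07), Slc2a1 (-1.04) and Bnip3 (-0.89), with adjusted p from 0.026 to 0.041 by limma. The fit without the block called 0 of the 29 here.

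At 1.7 mM the test called no gene at all. Of 11969 genes 0% passed limma's adjusted p (smallest 0.251), while 1595 had an unadjusted p under 0.05. The enzymes and transporters all read below the sham-treated tumour of experiment 1, with a within-experiment median of -0.29 (range -0.94 to -0.09). The 1.7 mM array was the highest of its experiment for 3 of the 29 genes, and for 14.5% of all genes. Ddit4 read 8.67 in tumour-free PBS, 9.47 in sham, 10.97 at 1.7 mM, 8.62 at 8.5 mM and 8.65 at 17 mM. The other two were Adm and Pfkfb3, the latter with 5.65, 6.43, 7.04, 6.11 and 6.14. Against sham the fitted differences at 1.7 mM were 1.37 for Ddit4 (adjusted p = 0.258) and 0.71 for Pfkfb3 (adjusted p = 0.33). Ddit4 thus read above sham at this dose where the enzymes read below it, on 1 array.

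Taken array by array in experiment 1, 16 of the 29 genes read lower in strict order from sham over 1.7 and 8.5 to 17 mM, as did 21.2% of all genes. The enzymes and transporters showed the order in 9 of 11 cases, and the other hypoxia targets in 6 of 15. Slc16a3 and Pfkl were the 2 enzymes out of order. In the direct test of 17 against 1.7 mM, 4 of the 29 genes were lower, where 1.89% of all genes were called lower and 4.06% higher. They were Ddit4 (-2.32), Adm (-1.93), Car9 (-1.37) and Hk2 (-1.32), each at an adjusted p of 0.0465 by limma. Without the block 1 of the 29 was called, and with no filter on low genes 0 of all genes passed. Joint quantile normalization called 1407 genes higher and 1123 lower.

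**Figure D3:**
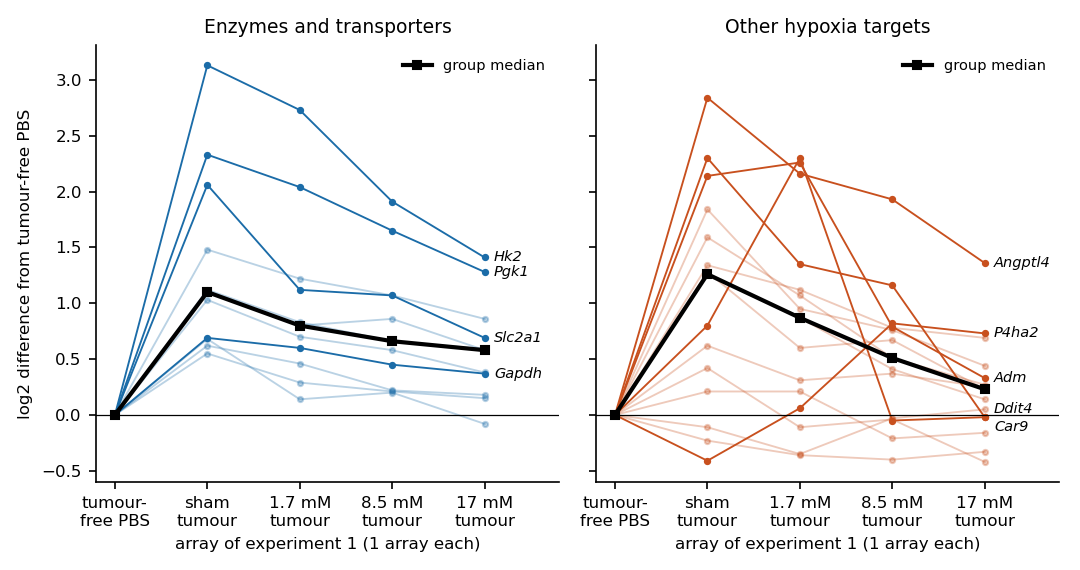
Log2 level on the 5 arrays of experiment 1 relative to tumour-free PBS, for the 11 enzymes and transporters and the 15 other hypoxia targets, 1 line per gene and the group median in black. The median of the enzymes went from 1.10 in sham to 0.58 at 17 mM, and that of the other targets from 1.26 to 0.23. Without the 2 transporters the enzymes went from 1.03 to 0.38, and with the 3 kinases added from 0.91 to 0.44.

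How far the median of the enzymes at 17 mM stood from that of the other targets depended on which genes were counted as enzymes. In tumours the fitted medians were 1.16 for the enzymes and transporters and 1.32 for the other targets. At 17 mM against tumour-free PBS they were 0.61 (range 0.15 to 1.44, all 11 above 0) and 0.29 (range -0.33 to 1.27, 11 of 15 above 0). Without the 2 transporters the median of the enzymes was 0.40, and with the 3 kinases added also 0.40. Hk2 (1.44, adjusted p = 0.0459) and Pgk1 (1.32, adjusted p = 0.0482) were called higher, where 2.61% of all genes were called higher and 0.368% lower. With no filter on low genes their adjusted p were 0.0547 and 0.0588. Car9 (-0.07), Ddit4 (0.11), Bnip3 (0.18) and Adm (0.34) lay near 0, with adjusted p from 0.172 to 0.768. Among the enzymes, Pfkl (0.15), Aldoa (0.185) and Pkm (0.245) lay near 0 as well. The targets Angptl4 (1.27) and Bhlhe40 (0.68) stood higher without being called (adjusted p = 0.0646 and 0.0775 by limma). Without the block none of the 29 was called here. In experiment 1 itself, 19 of the 29 genes read between tumour-free PBS and sham at 17 mM (10 of 11 enzymes, 8 of 15 other targets), as did 32.9% of all genes. The difference between the 2 groups of genes has no test here, since genes are not replicates.

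Markers of several cell types moved with these differences. Proliferation genes (5 of 6 listed were measured) had summed levels of 9.79 and 9.47 in tumour-free PBS and 12.62 and 11.92 in sham, then 12.39, 11.72 and 11.34 at the 3 doses. Urothelial genes went from 10.67 in sham to 11.50, 13.19 and 13.41. Neutrophil genes (4 of 6 measured) stood at 6.95 and 6.08 in tumour-free PBS, 11.46 and 10.53 in sham, and 9.63, 9.38 and 9.45 at the 3 doses. Macrophage genes (7 of 7) stood at 9.64 and 9.00 in tumour-free PBS, 12.32 and 11.61 in sham, and 12.57, 12.37 and 12.07 at the 3 doses, and 6 of the 7 were called higher in tumours. Their part in the changes of glycolytic and hypoxia genes was not tested.

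On the array labelled healthy, 17 mM, 24 h, the list stood between tumour-free and tumour bladder. All 11 enzymes and transporters read between the 2 PBS arrays of experiment 2, as did 21 of the 29 genes and 30.4% of all genes. Hk2 read 7.75 there, against 6.23 in tumour-free PBS and 9.49 in the sham-treated tumour, and Pgk1 10.13 against 9.00 and 11.47. Car9 read 4.30, the same as tumour-free PBS, against 6.41 in the tumour. Against tumour-free PBS none of the 29 passed (0% of all genes, smallest adjusted p 0.0568 by limma, 2503 genes at an unadjusted p under 0.05). Joint quantile normalization called 648 genes higher and 133 lower here, 3 of the 29 among them (Hk2, Pgk1 and Angptl4), and a variance trend 197 and 1, with Hk2 and Pgk1. Hk2 stood at 1.49 (adjusted p = 0.071), Pgk1 at 1.10 (0.097), Angptl4 at 1.08 (0.137) and Ldha at 0.74 (0.144). Against the sham-treated tumours 16 of the 29 were lower and P4ha2 was higher by 1.09, where 13.6% of all genes were called lower and 17% higher. The fit without the block called 8 lower. Summed proliferation genes read 10.50 there, between 9.47 and 11.92, and the part of this in the values was not tested.

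The tumour-free bladder 7 d after 17 mM showed no called change. None of the 29 genes passed (0% of all genes, smallest adjusted p 0.403, 1096 genes at an unadjusted p under 0.05), and the median difference was -0.12. Hk2 read 6.25 against 6.23 in tumour-free PBS, Ldha 9.76 against 9.76 and Car9 4.31 against 4.30. The farthest were Pfkp, 7.42 against 8.21, and Pfkfb3, 4.30 against 5.03. Slc16a3 was higher, 4.67 against 4.14. Differences of this size could not be told from the spread with 1 array. The effect of 17 mM itself differed between tumour and the 7 d bladder for 1 of the 29 genes, Car9 (-2.33, adjusted p = 0.0492 by limma), where 0.443% of all genes were called lower in tumours and 2.76% higher. In experiment 2 Car9 read near the filter level of 4.16 with PBS and at 7 d, so it had little room to fall there. Against the array labelled 24 h the effect of 17 mM was lower in tumours for 14 of the 29. Over all genes 8.52% were called lower and 10.6% higher.

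Other isoforms of these enzymes were examined beside the listed forms. Of 23 listed isoforms 20 had a probe set and 17 passed the filter. In tumours 5 rose and 6 fell, shares near the 28.6% of all genes called in each direction. Ldhb, the lactate dehydrogenase subunit that favours pyruvate, read 11.63 and 10.88 in tumour-free PBS, 8.18 and 7.10 in the sham-treated tumours, and 8.88, 10.48 and 10.71 at the 3 doses. Ldha and Ldhb thus changed in opposite directions in tumours (2.96-fold higher and 12.3-fold lower) and again at 17 mM, where Ldhb was 6.12-fold higher than in sham (adjusted p = 0.0159 by limma). Slc16a7, the monocarboxylate transporter MCT2, read 8.12 and 7.71 in tumour-free PBS, 5.00 and 3.41 in sham, and 6.17, 7.59 and 8.01 at the 3 doses. Pdk4, the pyruvate dehydrogenase kinase induced by fasting, read 8.46 and 7.93, then 3.97 and 3.18, and 7.11, 6.68 and 7.31. The sham readings of Pdk4, and that of Slc16a7 in experiment 2, also lay under 4.16. At 1.7 mM Pdk4 already stood near its 17 mM level, 3.21 above sham in the fit (adjusted p = 0.251). Slc2a3, the glucose transporter GLUT3, rose 11.2-fold in tumours and was 4.13-fold lower at 17 mM than in sham. At 17 mM 4 isoforms were higher than in sham (Pdk4, Slc16a7, Ldhb and Slc2a4) and 3 lower (Slc2a3, Eno3 and Slc16a1). Over all genes 15.7% were called higher there and 10.6% lower. At 8.5 mM 4 isoforms were higher and 2 lower, where 11% and 4.65% of all genes were. Smooth muscle genes (6 of 8 listed were measured) had summed levels of 14.19 and 14.05 in tumour-free PBS, 13.26 and 12.62 in sham, and 13.61, 14.59 and 14.84 at the 3 doses. Urothelial genes stood at 14.15 and 13.72, then 10.67 and 9.98, and 11.50, 13.19 and 13.41, the same order over the arrays of experiment 1 as Ldhb. The part of smooth muscle and urothelial genes in the isoforms was not tested.

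**Figure D4:**
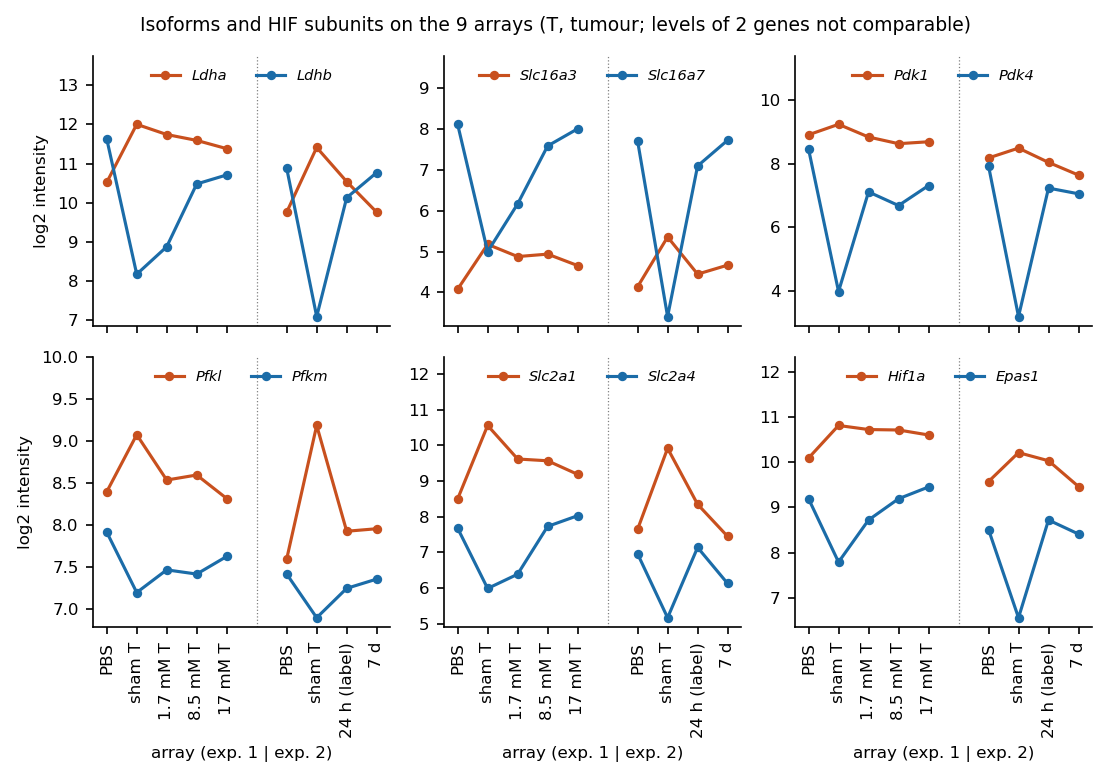
Log2 intensity of 6 pairs of related genes on the 5 arrays of experiment 1 (left of the dotted line) and the 4 of experiment 2 (right), 1 point per array; T stands for tumour. Levels of 2 genes in a panel are read by different probes and are not comparable. Ldha rose from 10.52 to 12.00 in the sham-treated tumour of experiment 1 while Ldhb fell from 11.63 to 8.18.

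Of 7 listed genes of the reverse pathway, gluconeogenesis, 5 passed the filter. Of these 3 fell in tumours with none higher, where 28.6% of all genes were called in each direction. The other two were Fbp2 (0.04, adjusted p = 0.774 by limma) and Pck2 (-0.06, adjusted p = 0.695). Fbp1, fructose bisphosphatase, which opposes phosphofructokinase, read 8.56 and 8.16 in tumour-free PBS and 3.89 and 2.93 in sham. At the 3 doses it read 4.79, 6.97 and 7.65, so the sham-treated tumour was the lowest array in each experiment. It was lower in tumours by -4.95 log2 (adjusted p = 0.0024 by limma) and 3.90 log2 higher at 17 mM than in sham (adjusted p = 0.0159). Its readings in sham lay under 4.16, the mean level that the filter on low values required, so the sizes of these differences are uncertain. Pcx, pyruvate carboxylase, and G6pc3, a glucose phosphatase, fell by 1.90 and 1.51 in tumours and were 1.29 and 0.88 higher at 17 mM than in sham. At 17 mM 3 of the 5 were called higher, where 15.7% of all genes were. At 8.5 mM Fbp1 alone of the 5 was called, 3.22 higher, where 11% of all genes were called higher. Urothelial genes had the same order over the arrays of experiment 1 as Fbp1. Kidney genes (2 of 3 listed were measured) had summed levels of 9.84 and 9.50 in tumour-free PBS, 6.12 and 6.27 in sham, and 5.95, 6.13 and 6.00 at the 3 doses. Liver genes (4 of 4) stood at 9.08 and 8.94, then 6.24 and 6.03, and 6.40, 9.64 and 10.80. Their high tumour-free level was that of Ttr, which read 8.91 and 8.78 in tumour-free PBS and 4.84 and 4.48 in sham. Alb, Apoa1 and Serpina1c read from 3.85 to 4.57 in tumour-free PBS and from 3.66 to 4.15 in sham. The part of the urothelial, kidney and liver genes in the gluconeogenesis genes was not tested.

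The HIF alpha subunits differed in direction. Hif1a read 10.09 and 9.57 in tumour-free PBS, 10.81 and 10.21 in sham, and 10.72, 10.71 and 10.60 at the 3 doses. It rose 1.60-fold in tumours (adjusted p = 0.011 by limma), and at 17 mM differed from sham by -0.19 (adjusted p = 0.31). Epas1, the alpha subunit HIF-2 of endothelium and other tissues, read 9.19 and 8.51, then 7.79 and 6.56, and 8.72, 9.19 and 9.45. It was 3.19-fold lower in tumours and 3.48-fold higher at 17 mM than in sham (adjusted p = 0.0264). Of 8 measured genes of the HIF machinery above the filter, 2 rose and 2 fell in tumours, where 28.6% of all genes were called in each direction. Beside Hif1a and Epas1 these were Hif3a, a further alpha subunit (0.54 higher), and Egln2, a prolyl hydroxylase (0.60 lower). Within experiment 1 Hif3a differed from sham by -0.57 at 17 mM. At 17 mM 1 rose, Epas1. HIF activity is controlled mainly at the protein level, which these arrays do not measure.

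A further list of hypoxia targets was mixed. Of 25 genes above the filter, 11 rose and 5 fell in tumours, where 28.6% of all genes were called in each direction. At 17 mM 6 were lower and 2 higher than in sham, where 10.6% and 15.7% of all genes were. Hmox1, heme oxygenase, rose by 3.35, Ero1a, an oxidase of protein folding, by 2.56, and Plod2, a collagen lysyl hydroxylase, by 1.91, while Vldlr, a lipoprotein receptor, fell by 2.93. At 17 mM Ero1a was 1.76 and Hmox1 1.28 lower than in sham, and Ak4, a mitochondrial adenylate kinase, and Gbe1, a glycogen branching enzyme, were 1.35 and 1.05 higher. Hmox1 (2.07) and Loxl2 (1.37) were still above tumour-free PBS at 17 mM (adjusted p = 0.0397 and 0.0453 by limma).

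Few mitochondrial genes were called. In tumours 28.6% of all genes were called higher and 28.6% lower, and at 17 mM against sham 15.7% and 10.6%. Of 15 genes of the citric acid cycle and pyruvate dehydrogenase, 3 rose and 2 fell in tumours. At 17 mM 2 of the 15 were called higher than in sham and 0 lower. Pdha1, the pyruvate dehydrogenase subunit that the Pdk kinases phosphorylate, fell by 1.45 and was 0.99 higher at 17 mM than in sham. Of 14 respiratory chain genes 1 rose in tumours, Cycs (0.64), and 1 fell, Cox4i1 (-0.38). At 17 mM 0 of the 14 passed limma's adjusted p against sham, and they ranged from -0.34 to 0.15. Of 5 pentose phosphate genes, Pgd (-1.04) and Rpia (-0.58) were lower in tumours, and 0 passed at 17 mM.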

How the data were processed

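The deposited values are log2 intensities of 45077 probe sets on 9 Affymetrix mouse PM arrays, made by RMA and Transcriptome Analysis Console 4.0.1.36 per the submitters' processing notes. Per the labels, RNA came from frozen bladder on RNeasy columns and 100 ng was labelled with a 3' IVT kit. For the genome build, the entry is "not given in the sources used here". In the deposited table, the authors' normalization treated the experiments apart: sorted values deviated by 0.022 log2 within an experiment and differed by 0.329 between them.

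Probe sets naming 1 gene (28898) were kept, 40 controls left out, and 1 probe set was used per gene, the one with the highest mean. The lowest 30% of genes (mean under 4.16) were left out. All 9 arrays were fitted with limma 3.58.1 in R 4.3.3, with 7 group means and the experiment number of the labels as a block. Arrays of the same number deviated together (correlation 0.647). The fit left 1 residual and 2.23 prior degrees of freedom, all from the PBS groups, so groups of 1 array were assumed to vary like those, and variation among treated bladders does not enter their p-values. Fitted differences pool both experiments, so they can differ slightly from those read off 2 arrays. Calls used adjusted p under 0.05 (Benjamini-Hochberg).

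On simulated data with 11969 genes, 50 genes were given each size of change and most genes none. A log2 change of 2 was called in 82% of its genes for tumour and in 72% for 17 mM against sham. A change of 1 was called in 12% and 0%. Far more genes were called in the real data, which makes the adjusted p less strict. There differences of 0.59 (Pfkfb3 in tumours) and -0.64 (Bhlhe40 at 17 mM) passed. The simulated shares therefore do not give the power in these data.

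Every listed gene is described; of other lists, counts and up to 4 called genes per comparison. All genes and lists were chosen with earlier results of these data known. Alternatives were no block, joint quantile normalization, other filters, a variance trend, a minimum change of 2-fold, the mean or another choice of probe sets, and leaving out PBS arrays. Fitting every probe set on its own was chosen after seeing the data. Sequences are from RefSeq (GRCm38.p6). Python 3.11.15 was used for summaries.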

Additional observations from a re-analysis of the deposited data

Results flagged for a closer look

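Effects of 17 mM alpha1-oleate were compared between tumour-bearing and tumour-free bladders as an interaction in the limma fit. The tumour arm had 5 instillations to day 12, and the tumour-free arm was sampled after 24 h or 7 d, so dosing and time differ between the arms.

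With the 7 d bladder, the effect on Car9 was lower in tumours than in tumour-free bladder by -2.33 log2 (adjusted p = 0.0492), where 0.443% of all genes were called in that direction. Car9 was 2.27 lower in the tumour arm and 0.06 higher in the 7 d arm. In experiment 2 it read 4.30 with PBS, 4.31 at 7 d and 4.30 on the array labelled 24 h. These readings lie near the filter level of 4.16 and left little room for a fall without a tumour. The interaction therefore cannot tell whether the effect on Car9 is particular to tumours.

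The array labelled healthy, 17 mM, 24 h had some genes that went against its label. With it, 14 genes of the 29 had a lower effect in tumours, where 8.52% of all genes did. The differences were -3.24 for Hk2, -2.47 for Angptl4, -2.32 for Car9, -2.18 for Pgk1, -2.07 for Slc2a1 and -2.01 for Adm. They were -1.61 for Egln3, -1.54 for Higd1a, -1.53 for Ankrd37 and -1.40 for Ldha. Bnip3 and Bhlhe40 stood at -1.23 each, Pfkp at -1.21 and Tpi1 at -1.06. For Hk2 the sum is made of 1.75 lower in the tumour arm and 1.49 higher on the labelled array.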

How the results depend on the processing

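With no replicate block, the genes called of 29 were 15 in tumours, 3 at 17 mM against sham, 0 at 8.5 mM, 1 for 17 against 1.7 mM, 0 for 17 mM against tumour-free PBS and 8 for the array labelled 24 h against sham, where the blocked fit called 24, 14, 8, 4, 2 and 17. Over all genes the unblocked fit called 1538 higher and 1634 lower in tumours, against 3428 and 3424 with the block, and 1096 and 121 at 17 mM, against 1875 and 1272. It called 904 and 41 at 8.5 mM, against 1315 and 557, then 35 and 1 at 1.7 mM, against 0 and 0, and 70 and 28 for 17 against 1.7 mM, against 486 and 226. For 17 mM against tumour-free PBS it called 573 and 17, against 312 and 44, and for the labelled array 712 and 679 against sham, where the blocked fit called 2035 and 1622. For the labelled array and the 7 d bladder against tumour-free PBS it called 122 and 4, and 2 and 13, where the blocked fit called 0. With joint quantile normalization 8.5 mM gave 14, 17 against 1.7 mM 8, 17 mM against tumour-free PBS 6 and the labelled array against tumour-free PBS 3. Over all genes it called 1820 higher and 1452 lower, 1407 and 1123, 1176 and 1012, and 648 and 133 in these comparisons, and 8 and 20 at 7 d. For 17 against 1.7 mM, leaving out the lowest 50% of genes gave 685 and 378, the mean of probe sets 805 and 430, and the variance trend 871 and 532. For 17 mM against tumour-free PBS no filter gave 192 and 10, and these settings 458 and 119, 518 and 166, and 573 and 159. For the labelled array against tumour-free PBS they gave 121 and 0, 95 and 1, and 197 and 1. With a variance trend 8.5 mM gave 13, 17 mM against tumour-free PBS 4 and the labelled array against tumour-free PBS 2. With no filter, 17 against 1.7 mM and 17 mM against tumour-free PBS gave 0. Leaving out 1 PBS array, possible only with no replicate block, gave 7 to 14 in tumours, 1 to 2 at 17 mM, 0 to 1 at 8.5 mM, for 17 against 1.7 mM and for 17 mM against tumour-free PBS, and 3 to 8 for the labelled array against sham. Without tumour_PBS replicate 1 the 1 gene called at 17 and at 8.5 mM was higher instead of lower, and Tpi1 at 17 mM stood at 0.01. The mean of probe sets gave Egln1 0.69 in tumours (adjusted p = 0.00813 by limma). Without tumour_PBS replicate 1, the treated tumours of experiment 1 were set only against the sham-treated tumour of experiment 2, which had been normalized apart. The cause of these shifts was not tested. Choosing probe sets without the labelled array kept the side of the threshold in 261 of 261 comparisons of single genes. Signal near background limits the low genes such as Slc16a3. The medians of enzymes and other targets at 17 mM against tumour-free PBS lay 0.33 apart, and 0.11 apart without the transporters or with the kinases added.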

Other observations

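Genes in this paragraph were chosen after their values were seen. Cited2, an inhibitor of HIF transcription and itself a hypoxia target, read 7.65 in tumour-free PBS, 8.83 in sham, 10.04 at 1.7 mM, 8.18 at 8.5 mM and 8.41 at 17 mM in experiment 1. Like Ddit4, it was highest on the 1.7 mM array, and it was 1.63 lower at 17 than at 1.7 mM (adjusted p = 0.0465 by limma). Lox, a collagen crosslinking enzyme and hypoxia target, read 6.56 and 6.33 in the tumour-free PBS bladders of the 2 experiments and 8.13 and 7.12 in the sham-treated tumours. It read 8.79 at 17 mM, and 8.13 on the array labelled 24 h and 8.08 at 7 d. Its relative Loxl2 read 3.87 and 3.84 in tumour-free PBS, 5.24 in the sham-treated tumour of experiment 2 and 5.08 at 7 d. These 2 genes thus read above tumour-free PBS in the 7 d bladder, where Hk2, Ldha and Car9 read at their tumour-free levels. No gene was called at 7 d, and the tumour-free readings of Loxl2 lay under the filter level of 4.16. Summed fibroblast genes read 12.77 in tumour-free PBS of experiment 2 and 13.44 at 7 d. Their part in Lox and Loxl2 was not tested. The liver gene Alb read 4.57, 4.04, 3.87, 8.83 and 10.15 on the arrays of experiment 1, in the order tumour-free PBS, sham, 1.7, 8.5 and 17 mM.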
